A study of Mus musculus with 4 samples.

Results

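The thiazide-sensitive sodium chloride cotransporter gene Slc12a3 and the genes of the WNK kinase pathway around it were read in single nuclei of mouse kidney cortex. Genes of distal magnesium transport were read with them. The set was chosen by gene symbol and holds 9 genes: Slc12a3, Wnk1, Wnk4, Stk39, Oxsr1, Klhl3, Cul3, Trpm6 and Cnnm2. A row under its own symbol was used for 8 of the 9, out of 21046 genes measured, and Oxsr1 was not analysed here. The study crossed deletion of the transcription factor Klf4 in endothelial cells with loss of Nos3, the endothelial nitric oxide synthase. It had 4 libraries, 1 for each genotype: Klf4deltaECNos3-/-, Klf4deltaEC, Nos3-/- and Klf4flox/flox, the last called the control, all recorded as C57BL/6J. The sources used here do not give the driver that deleted Klf4, the age of the mice, whether a library pools animals, or whether the library labelled Nos3-/- also carries the floxed Klf4 allele.

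The cotransporter takes up sodium and chloride from the urine in the distal convoluted tubule and is the target of thiazide diuretics. It is switched on by phosphorylation: the WNK kinases Wnk1 and Wnk4 activate SPAK, the product of Stk39, and its relative OSR1, the product of Oxsr1, and these phosphorylate the cotransporter. Klhl3 is the adaptor that brings WNK kinases to the cullin Cul3 for ubiquitination and breakdown. Mutations of WNK1, WNK4, KLHL3 or CUL3 in humans cause familial hyperkalaemic hypertension, and loss of SLC12A3 causes Gitelman syndrome, a salt-wasting disease with low magnesium. Trpm6 is the apical magnesium channel of the same tubule segment, and Cnnm2 is a basolateral membrane protein needed for magnesium reabsorption.

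All levels are mean unique molecular identifiers (UMIs) per 10000 UMIs of the nuclei of 1 of 23 numbered clusters in 1 library. Ranges in brackets are 95% counting intervals, which rest on inferred nuclei and UMI numbers and leave out differences between nuclei, mice and preparations. Each genotype has 1 library, so no difference was tested against replicates and no p-value or SD is given. Levels of different genes are not compared with each other, since nuclear UMIs were not scaled to gene length. The inferred number of nuclei was 5491, 6883, 7004 and 6766 in the libraries labelled Klf4deltaECNos3-/-, Klf4deltaEC, Nos3-/- and control. The typical UMI total of a nucleus was 5390, 4126, 2351 and 4753 in that order, so the library labelled Nos3-/- was the shallowest. In endothelial cell-like cluster 10, Klf4 was at 0.824 and 0.779 in the 2 libraries labelled as lacking it, against 0.445 and 0.621 in the libraries labelled Nos3-/- and control. Nos3 was at 2.07 and 1.52 in the libraries labelled Klf4deltaECNos3-/- and Nos3-/-, against 0.930 and 1.26 in those labelled Klf4deltaEC and control. Neither gene was lower where the label says it was lost. The sources used here do not give the deleted exons, so these counts do not check the labels, and genotypes below are those of the labels.

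Cluster 9 was distal convoluted tubule-like and is the cluster in which most of these genes stood highest. Its leading genes against the other clusters were Slc12a3, Trpm6 and Abca13, with Klhl3 among its 10 highest. It held 215, 287, 376 and 220 nuclei in the libraries labelled Klf4deltaECNos3-/-, Klf4deltaEC, Nos3-/- and control, with median totals of 2355 to 4312 UMIs. Pvalb, a marker of the early distal convoluted tubule in mice, was highest in cluster 9, at a mean of 0.346. Cluster 11 carried Slc12a3, Trpm6 and Sgms2 beside the connecting tubule genes Slc8a1, Calb1 and Scnn1b. Its mean scaled marker level was 2.53 for the connecting tubule and 2.10 for the distal convoluted tubule, so it is called by its number. It held 154, 187, 255 and 195 nuclei in the same library order, and Pvalb was at 0 there in the libraries labelled Klf4deltaEC, Nos3-/- and control. A count of 3 UMIs corresponded to a level between 0.0341 and 0.0376 in cluster 9 and between 0.0450 and 0.0593 in cluster 11.

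The promoters of the cotransporter and of the kinase Wnk1 are shown because these 2 genes set the main contrasts below. Slc12a3 was concentrated in clusters 9 and 11, while Wnk1 varied less between clusters. Each line holds the 250 bases before the RefSeq start, read 5′ to 3′ on the gene's strand in GRCm38.p6, the patch release of mm10. They lie at chr8:94328958-94329207 on the plus strand for Slc12a3 and at chr6:120038656-120038905 on the minus strand for Wnk1. Capitals mark a TATA box.
Slc12a3: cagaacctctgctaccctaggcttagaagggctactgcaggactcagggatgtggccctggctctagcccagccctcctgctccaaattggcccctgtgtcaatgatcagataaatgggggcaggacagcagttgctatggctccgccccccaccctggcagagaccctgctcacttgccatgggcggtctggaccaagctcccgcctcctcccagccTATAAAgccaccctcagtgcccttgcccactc
Wnk1: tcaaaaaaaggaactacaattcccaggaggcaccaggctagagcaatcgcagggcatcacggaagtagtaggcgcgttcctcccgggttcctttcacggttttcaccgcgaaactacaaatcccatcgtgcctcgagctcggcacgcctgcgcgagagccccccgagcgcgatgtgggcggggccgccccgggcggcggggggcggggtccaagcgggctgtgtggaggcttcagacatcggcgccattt

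The Slc12a3 window held TATAAA with its first base 32 bases before the start, a motif found on either strand in 12.4% of 32851 RefSeq windows of this length. It had 3 CG dinucleotides, against 26 in the Wnk1 window and a median of 6 over all windows. None of the other 8 windows of the set, Oxsr1 included, held TATAAA on either strand. An HNF1-type GTTAAT, an ERR-type AAGGTCA and a steroid receptor-type AGAACA were searched on both strands and matched in none of the 9 windows. They occur in 6.43%, 4.08% and 16.1% of all windows. The Wnk1 window precedes the start of the long transcript. The kidney-specific short Wnk1, which begins at a promoter inside the gene and lacks most of the kinase domain, is counted under the same symbol, so short and long forms cannot be told apart here.

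Slc12a3 (ENSMUSG00000031766, chromosome 8 from 94329201 to 94366214 on the plus strand, mm10) was at 191, 212, 176 and 189 per 10000 in cluster 9 of the libraries labelled Klf4deltaECNos3-/-, Klf4deltaEC, Nos3-/- and control. In cluster 11 it was at 83.4, 84.2, 103 and 71.3 in the same order. Every library thus had a lower level in cluster 11, between 0.378 of its cluster 9 level in the library labelled control and 0.586 in the one labelled Nos3-/-. The 4 cluster 11 levels did not overlap the 4 of cluster 9, and both lay above the third-ranked cluster 7, which ranged from 8.40 to 23.4. The mean in cluster 9 was 108 times the median over the 21 clusters outside 9 and 11. From the fourth rank on, the ranges over libraries overlapped (cluster 22 from 1.08 to 15.001, cluster 12 from 0.894 to 9.71).

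In cluster 9 the cotransporter differed little between libraries. Its log2 ratio was 0.17 (0.14 to 0.20) for Klf4deltaEC over control, -0.10 (-0.13 to -0.07) for Nos3-/- over control and 0.02 (-0.01 to 0.05) for Klf4deltaECNos3-/- over control. In cluster 11 the same ratios were 0.24 (0.18 to 0.30), 0.53 (0.47 to 0.59) and 0.22 (0.17 to 0.28), so all 3 libraries stood above the control there. Of all genes tested in cluster 11, 43.2%, 26.5% and 50.5% lay as far from 0 in those comparisons. The 8 connecting tubule markers summed to 639, 698, 605 and 830 in cluster 11 of the libraries labelled Klf4deltaECNos3-/-, Klf4deltaEC, Nos3-/- and control, with none at 0. For Nos3-/- over control 0 of these 8 were above 0, at a median log2 ratio of -0.66. Most of the sum was Slc8a1, at a mean of 636 over the 4 libraries, which is also on the distal convoluted tubule list. That list summed to 737, 798, 737 and 922 in cluster 11 in the same order. For Nos3-/- over control 2 of its 7 tested genes were above 0, at a median of -0.38. The 7 principal cell markers summed to 11.1, 10.7, 6.495 and 10.9 there, with Avpr2 at 0 in the library labelled Nos3-/-. The part of these in the Slc12a3 difference was not tested. The ratio of Nos3-/- over control thus lay below 0 in cluster 9 and above 0 in cluster 11. None of these reached a log2 ratio of 1 in size, the limit used throughout.

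**Figure D1:**
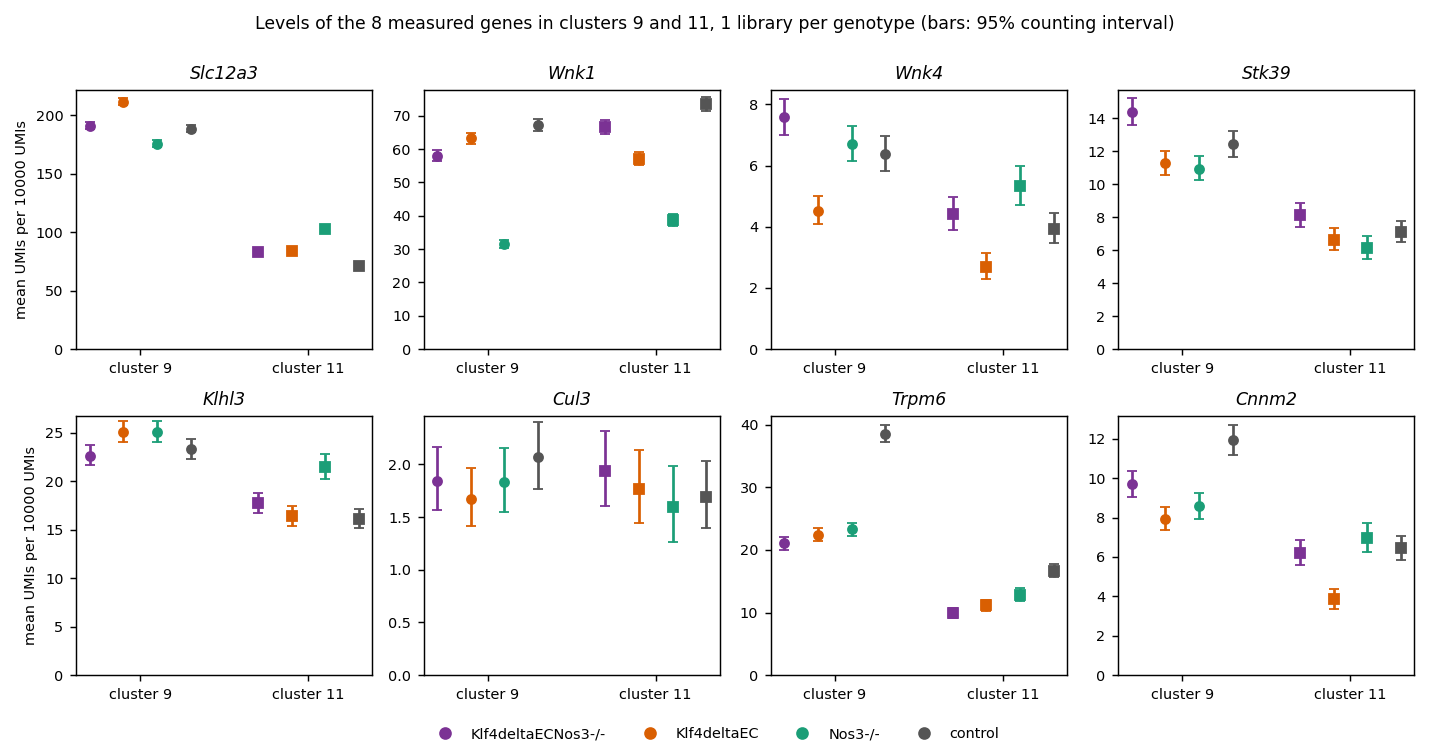
Levels of the 8 genes in clusters 9 (circles) and 11 (squares), in mean UMIs per 10000 UMIs, with the libraries labelled Klf4deltaECNos3-/-, Klf4deltaEC, Nos3-/- and control from left to right; bars are 95% counting intervals and each panel has its own axis from 0. Wnk1 was lowest in the library labelled Nos3-/- in both clusters (31.5 and 38.7), and Trpm6 was highest in the control in both (38.6 and 16.7).

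Wnk1 (ENSMUSG00000045962, chromosome 6 from 119923969 to 120038672 on the minus strand) had the log2 ratio furthest from 0 of the 8 genes over the 5 comparisons, in cluster 9. In cluster 9 it was at 58.0, 63.2, 31.5 and 67.2 in the libraries labelled Klf4deltaECNos3-/-, Klf4deltaEC, Nos3-/- and control. Cluster 11 had 66.6, 57.1, 38.7 and 73.5 in that order. The library labelled Nos3-/- was the lowest in both clusters, and the control was the highest. A processed pseudogene and a microRNA gene, Gm16199 and Mir706, overlap Wnk1 in the annotation.

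For Nos3-/- over control the Wnk1 log2 ratio was -1.09 (-1.16 to -1.03) in cluster 9 and -0.92 (-1.001 to -0.85) in cluster 11. In cluster 9, 6.33% of the 4027 genes tested lay as far from 0, and 10.4% of genes did in cluster 11. For Klf4deltaECNos3-/- over Nos3-/- the Wnk1 log2 ratio was 0.88 (0.81 to 0.95) in cluster 9 and 0.78 (0.71 to 0.86) in cluster 11, where 11.2% and 15.7% of genes lay as far. Both of these comparisons use the library labelled Nos3-/- and are not independent. For Klf4deltaEC over control it was -0.09 (-0.14 to -0.03) in cluster 9 and -0.36 (-0.43 to -0.30) in cluster 11. Several measures of the library labelled Nos3-/- moved beside this difference in cluster 9. The 8 proximal tubule markers summed to 6.21, 7.59, 23.4 and 8.12 in the libraries labelled Klf4deltaECNos3-/-, Klf4deltaEC, Nos3-/- and control, with none at 0. The 13 mitochondrially encoded genes summed to 47.4, 47.0, 21.8 and 53.1. The 7 thick ascending limb markers summed to 99.7, 66.6, 52.3 and 97.7, with Cldn16 at 0 in the libraries labelled Klf4deltaEC and control. Most of that sum was Egf, at 75.8, 51.6, 35.4 and 75.4 in the same order. Slc12a1 of the same list was at 8.29, 4.66, 7.83 and 8.99. Of the 6 list genes tested for Nos3-/- over control, 2 were above 0, at a median log2 ratio of -0.29. In cluster 11 the proximal tubule sums were 5.48, 7.25, 25.3 and 8.38 and the mitochondrial sums 45.6, 43.6, 19.4 and 52.1. The thick ascending limb sums there were 16.2, 11.9, 20.4 and 15.4, with Cldn16 at 0 in the same 2 libraries, so the library labelled Nos3-/- was the highest in cluster 11 and the lowest in cluster 9. The connecting tubule sums of cluster 11, given with Slc12a3, were lowest in the library labelled Nos3-/-. The part of these in the Wnk1 difference was not tested.

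Outside the distal clusters the direction of the Wnk1 ratio was mixed. In the library labelled Nos3-/- it was higher in 14 of 21 clusters, and the log2 ratio over control had a median of 0.21 and a range of -0.46 to 0.71. The lowest of the 21 was cluster 19, a thick ascending limb-like cluster that was the third highest for Wnk1. There it was at 45.2, 48.0, 22.3 and 30.8 in the libraries labelled Klf4deltaECNos3-/-, Klf4deltaEC, Nos3-/- and control. Both libraries with the Klf4 deletion in their label stood above the control in cluster 19, with log2 ratios of 0.55 (0.40 to 0.70) for Klf4deltaECNos3-/- and 0.64 (0.49 to 0.79) for Klf4deltaEC. In the library labelled Klf4deltaECNos3-/-, Wnk1 also stood at 12.7 in cluster 16 and 16.2 in cluster 17, against 7.44 and 10.0 in the control. Those log2 ratios were 0.77 (0.57 to 0.99) and 0.69 (0.47 to 0.92). The largest was 1.83 (1.39 to 2.33), in cluster 22 with 14 nuclei. Clusters 7, 12, 14, 15 and 18 stood below the control in this library. For Klf4deltaECNos3-/- and Klf4deltaEC over control, cluster 4 had log2 ratios of 0.48 and 0.55 and cluster 14 had -0.24 and -0.42. Cluster 16 was intercalated cell-like, and cluster 17, where the principal cell markers were the highest list, stayed unnamed. The 3 highest clusters kept apart from the rest: cluster 19 did not fall below 22.3 in any library, while no other cluster outside 9 and 11 exceeded 18.5. Clusters 9 and 11 overlapped each other in level.

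**Figure D2:**
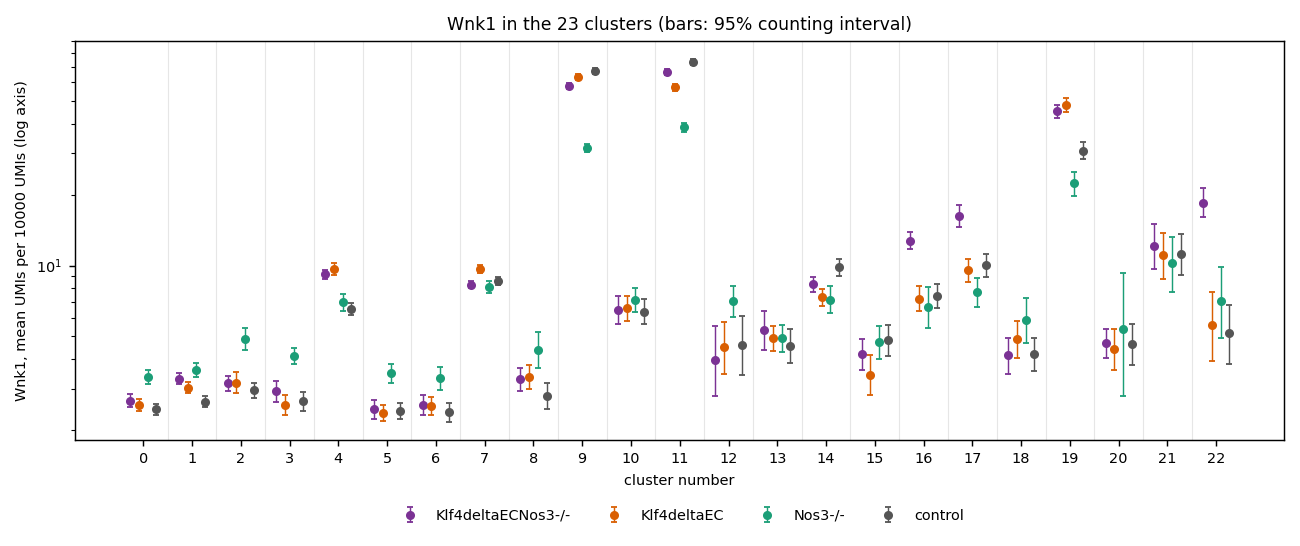
Wnk1 level (mean UMIs per 10000 UMIs, log axis) in each of the 23 clusters, with the libraries in the order of the legend and 95% counting intervals as bars. Clusters 9, 11 and 19 lie above the rest, and in these 3 the library labelled Nos3-/- is the lowest, at 31.5, 38.7 and 22.3.

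Wnk4 (ENSMUSG00000035112, chromosome 11 from 101260567 to 101277409 on the plus strand) encodes the WNK kinase whose mutations were among the first tied to familial hyperkalaemic hypertension. It was at 7.57, 4.53, 6.71 and 6.38 in cluster 9 of the libraries labelled Klf4deltaECNos3-/-, Klf4deltaEC, Nos3-/- and control. The cluster 11 levels were 4.41, 2.68, 5.32 and 3.93. The library labelled Klf4deltaEC was the lowest in both clusters. For Klf4deltaEC over control the log2 ratio was -0.49 (-0.69 to -0.30) in cluster 9 and -0.54 (-0.85 to -0.26) in cluster 11. As far from 0 lay 11.5% of genes in cluster 9 and 10.3% in cluster 11. For Klf4deltaECNos3-/- over Klf4deltaEC the Wnk4 log2 ratio was 0.73 (0.56 to 0.93) and 0.70 (0.43 to 1.01), where 5.57% and 7.49% of genes lay as far. Both of these comparisons use the library labelled Klf4deltaEC and are not independent. The direction for Klf4deltaEC over control was shared beyond the distal clusters. Wnk4 stood below control in 12 of the 13 other clusters with a level above the filter, with a median log2 ratio of -0.37. Of 3457 genes measured in at least 13 of the other clusters, 1.79% were below control in as large a share of them. Clusters 5 and 13 passed only because the control reached 0.5, which fixed their direction. Below the filter, the library labelled Klf4deltaEC was higher than the control in clusters 1 and 20. It was lower in clusters 0, 6, 10, 15, 18 and 22. The thick ascending limb-like clusters 4 and 2 came next in level, from 3.36 to 4.37 and from 3.09 to 4.57, and overlapped cluster 11. An antisense gene, Gm11615, overlaps Wnk4, and the sources used here do not say whether counting used strand.

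Stk39 (ENSMUSG00000027030, chromosome 2 from 68210445 to 68472268 on the minus strand) encodes SPAK, the kinase between the WNKs and the cotransporters of both the distal convoluted tubule and the thick ascending limb. It was at 14.4, 11.3, 10.95 and 12.5 in cluster 9 of the libraries labelled Klf4deltaECNos3-/-, Klf4deltaEC, Nos3-/- and control. Its levels in cluster 11 were 8.12, 6.65, 6.12 and 7.10. The library labelled Klf4deltaECNos3-/- was the highest in both clusters, with log2 ratios over control of 0.21 (0.09 to 0.34) and 0.19 (0.01 to 0.38). Of all genes tested, 52.6% and 56.8% lay as far from 0 in those comparisons. The Stk39 mean in cluster 9 was 4.90 times the median over the 21 clusters outside 9 and 11, against 108 times for Slc12a3. The thick ascending limb-like cluster 2 ranged from 9.45 to 13.8 and the principal cell-like cluster 8 from 8.67 to 12.9, both overlapping cluster 9. In the proximal tubule-like cluster 5 the mean was 0.309, the lowest of the clusters outside 9 and 11.

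Klhl3 (ENSMUSG00000014164, chromosome 13 from 58000228 to 58113592 on the minus strand), the substrate adaptor of the ubiquitin ligase, was at 22.7, 25.1, 25.1 and 23.3 in cluster 9 of the libraries labelled Klf4deltaECNos3-/-, Klf4deltaEC, Nos3-/- and control. Cluster 11 had 17.7, 16.4, 21.5 and 16.2. The 4 libraries lay close together in cluster 9. In cluster 11 the library labelled Nos3-/- stood above the others, at a log2 ratio over control of 0.41 (0.29 to 0.53). As far from 0 lay 38.0% of genes in that comparison. The connecting tubule marker sum in cluster 11 was 605 against 830 in the control, and the distal convoluted tubule sum was 737 against 922. Slc8a1, the largest part of both, is on both lists. The part of these sums in the Klhl3 difference was not tested. The third-ranked cluster, 22, ranged from 3.47 to 4.19, so clusters 9 and 11 did not overlap with any other. Over the 21 other clusters Klhl3 was above control in the library labelled Nos3-/- in 21, with a median log2 ratio of 0.69. This direction was shared by 2.97% of the 2257 genes measured in all 21. Clusters 0, 1, 18, 20 and 21 passed the filter only because the library labelled Nos3-/- reached 0.5, which fixed their direction. The filter left out none of the 21 clusters. A microRNA gene, Mir874, lies within Klhl3.

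Cul3 (ENSMUSG00000004364, chromosome 1 from 80264923 to 80340480 on the minus strand), the cullin scaffold of the same ligase, had no distal peak. It was at 1.85, 1.67, 1.83 and 2.07 in cluster 9 of the libraries labelled Klf4deltaECNos3-/-, Klf4deltaEC, Nos3-/- and control. The levels in cluster 11 were 1.93, 1.76, 1.59 and 1.69. Its cluster means ran from 1.24 in cluster 1 to 1.87 in cluster 21, and the ranges over libraries overlapped between clusters 9, 11 and 21. The counting interval of the log2 ratio included 0 in all 5 comparisons in both clusters, and in cluster 9 it spanned -0.64 to 0.02 for Klf4deltaEC over control. The unclassified annotated transcripts Gm37902 and Gm37262 overlap Cul3.

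Trpm6 (ENSMUSG00000024727, chromosome 19 from 18749983 to 18892511 on the plus strand), the magnesium channel, was lower in all 3 mutant libraries than in the control in clusters 9 and 11. In cluster 9 it was at 21.04, 22.4, 23.3 and 38.6 in the libraries labelled Klf4deltaECNos3-/-, Klf4deltaEC, Nos3-/- and control. Cluster 11 had levels of 9.88, 11.2, 12.8 and 16.7. The 3 mutant libraries lay close together in cluster 9, and the control stood above them in both clusters. In cluster 9 the log2 ratio over control was -0.87 (-0.96 to -0.79) for Klf4deltaECNos3-/-, -0.78 (-0.86 to -0.70) for Klf4deltaEC and -0.73 (-0.81 to -0.65) for Nos3-/-. In cluster 11 it was -0.75 (-0.90 to -0.61), -0.58 (-0.72 to -0.44) and -0.38 (-0.52 to -0.24) in that order. Of all genes tested in cluster 9, 2.58%, 2.35% and 12.9% lay as far from 0 in those comparisons, and 5.77%, 8.18% and 40.9% did in cluster 11. The cluster 11 ratio for Nos3-/- was thus within the common range of genes. All 3 share the control library, so a high value in that library alone cannot be told apart from a lower value in the other 3. Between mutant libraries the log2 ratio in cluster 9 was -0.15 (-0.24 to -0.05) for Klf4deltaECNos3-/- over Nos3-/- and -0.09 (-0.19 to 0.00) for Klf4deltaECNos3-/- over Klf4deltaEC. Outside clusters 9 and 11, Trpm6 was above control in the library labelled Nos3-/- in all 17 clusters that passed the filter. The median log2 ratio was 1.48 and the range 0.07 to 2.30. Most passed only because that library reached 0.5, which fixed their direction. The control also reached 0.5 in clusters 7, 8, 12 and 17. Log2 ratios there were 0.42 (0.25 to 0.61), 0.07 (-0.77 to 0.86), 0.84 (-0.07 to 2.00) and 0.45 (-0.29 to 1.30). Below the filter, the library labelled Nos3-/- was higher in clusters 0 and 1 and at 0 in clusters 20 and 22.

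Cnnm2 (ENSMUSG00000064105, chromosome 19 from 46761596 to 46880192 on the plus strand), the basolateral magnesium gene, was at 9.68, 7.93, 8.58 and 11.9 in cluster 9 of the libraries labelled Klf4deltaECNos3-/-, Klf4deltaEC, Nos3-/- and control. In cluster 11 it was at 6.21, 3.86, 6.97 and 6.43. The control was the highest in cluster 9 but not in cluster 11, and the library labelled Klf4deltaEC was the lowest in both. For Klf4deltaEC over control the log2 ratio was -0.58 (-0.73 to -0.45) in cluster 9 and -0.72 (-0.98 to -0.50) in cluster 11. As far from 0 lay 6.48% of genes in cluster 9 and 3.69% in cluster 11. The third-ranked cluster, 22, ranged from 1.15 to 2.19 and did not overlap cluster 11.

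**Figure D3:**
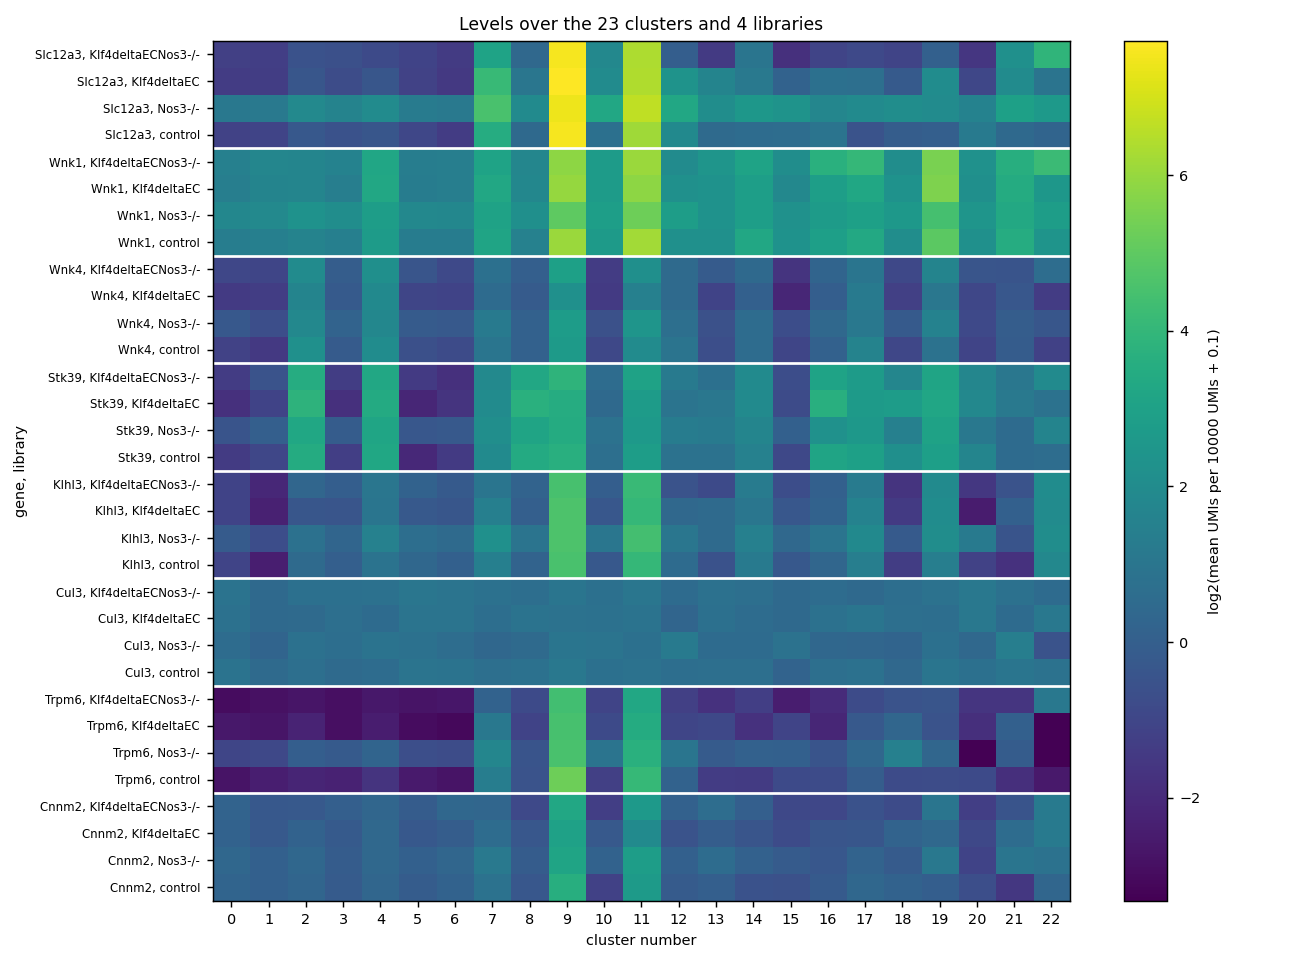
Levels of the 8 genes in the 4 libraries (rows) over the 23 clusters (columns), coloured by log2(mean UMIs per 10000 UMIs + 0.1); colours compare clusters and libraries within a gene. Slc12a3, Klhl3, Trpm6 and Cnnm2 peak in clusters 9 and 11, Stk39 is also high in clusters 2, 4 and 8, and Cul3 is even over clusters. The Slc12a3 and Trpm6 rows of the library labelled Nos3-/- are lighter in most clusters outside 9 and 11.

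Counted together in cluster 9, 1 of the 8 genes, Wnk1, passed a log2 ratio of 1 in size for Nos3-/- over control, where 7.55% of 4027 genes did. In cluster 9 none passed for Klf4deltaEC over control (0.723% of all genes), Klf4deltaECNos3-/- over control (1.57%), Klf4deltaECNos3-/- over Nos3-/- (9.03%) or Klf4deltaECNos3-/- over Klf4deltaEC (1.17%). None of the 8 passed in cluster 11 either, where the shares of all genes were 0.58% for Klf4deltaEC over control, 8.87% for Nos3-/- over control and 1.52% for Klf4deltaECNos3-/- over control. For Klf4deltaECNos3-/- the cluster 11 shares were 9.79% over Nos3-/- and 1.48% over Klf4deltaEC. With 8 genes, the single call is near the share of all genes in its comparison. The median log2 ratio of the 8 in cluster 9 was -0.22 for Klf4deltaEC over control, against -0.05 over all genes. It was -0.17 against 0.06 for Nos3-/- over control, and -0.10 against 0.08 for Klf4deltaECNos3-/- over control. In cluster 11 the medians of the 8 were -0.23, 0.02 and 0.15 in those comparisons, against -0.02, 0.07 and 0.09 over all genes.

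**Figure D4:**
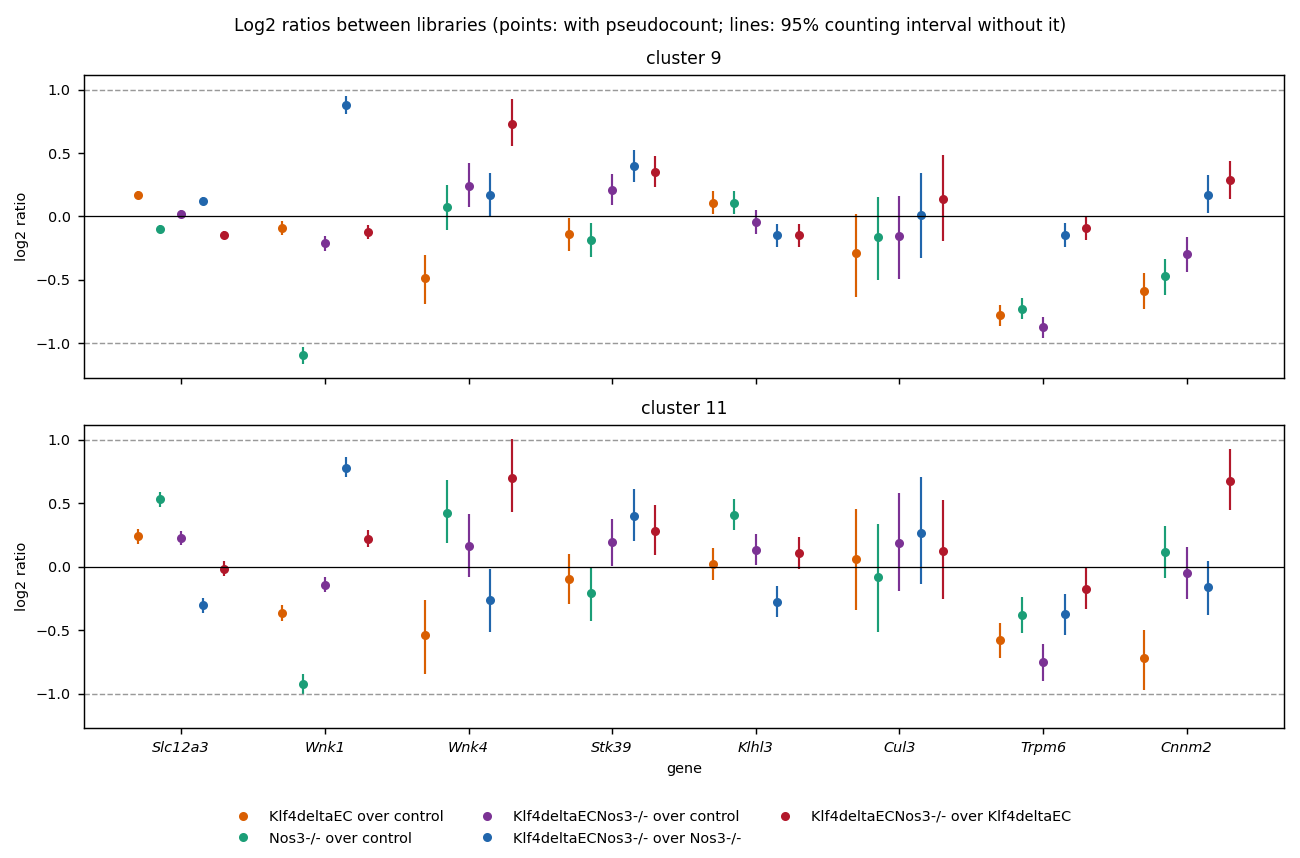
Log2 ratios of the 8 genes in 5 comparisons, in cluster 9 (upper panel) and cluster 11 (lower panel); points include a pseudocount of 0.1 per 10000, lines are 95% counting intervals without it, and dashed lines mark the limit of 1 in size. Wnk1 in cluster 9 for Nos3-/- over control (-1.09) is the one point past the limit, and the 3 Trpm6 points over control lie between -0.87 and -0.73.

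Slc12a3 was also counted outside the distal clusters, and these values are set apart. Over the 21 clusters other than 9 and 11 its median level was 0.462, 1.56, 3.89 and 1.08 in the libraries labelled Klf4deltaECNos3-/-, Klf4deltaEC, Nos3-/- and control. As a share of the cluster 9 level of the same library, these medians were 0.242%, 0.735%, 2.21% and 0.573%. The library labelled Nos3-/- was the higher of the pair with the control in 21 of 21 clusters. The median log2 ratio was 2.15, the lowest 0.41 and the highest 2.54. Of the 2257 genes measured above the filter in all 21 clusters, 2.97% were likewise above 0 in every one, and the median over these genes was 0.09. In 19 of the 21 the Slc12a3 ratio passed the limit as higher, while in cluster 9 the same comparison gave -0.10. That count was reached by 3 of the 2257 genes, Slc12a3 among them. Clusters 0, 1, 5 and 6, which are among the 19, passed the filter only because the library labelled Nos3-/- reached 0.5. This fixed their direction but not the size of the ratio. The filter left out none of the 21 clusters. The median share of genes past the limit as higher was 7.41% over the 21 clusters. The lowest level in each library was 0.186 (cluster 15), 0.257 (cluster 6), 2.04 (cluster 0) and 0.285 (cluster 6). In proximal tubule-like cluster 0, a segment not known to express the cotransporter, it was at 0.323, 0.290, 2.04 and 0.349 in the 4 libraries. In podocyte-like cluster 15 it was at 0.186, 0.999, 5.05 and 1.43.

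**Figure D5:**
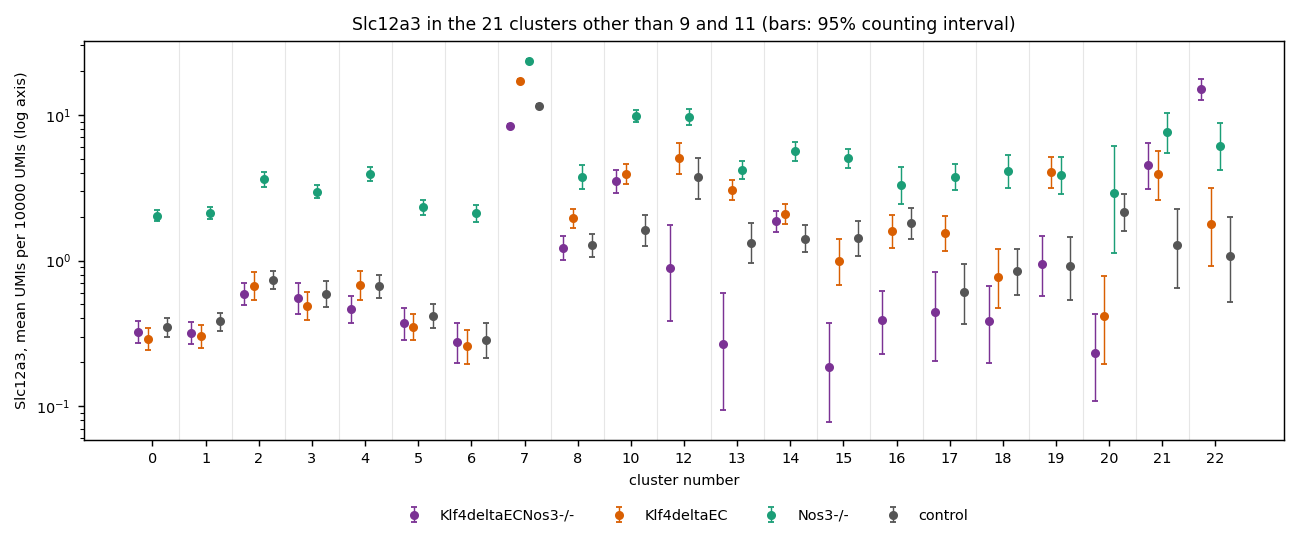
Slc12a3 level (mean UMIs per 10000 UMIs, log axis) in the 21 clusters other than 9 and 11, with the libraries in the order of the legend and 95% counting intervals as bars. The library labelled Nos3-/- is above the control in all 21, with a median of 3.89 against 1.08.

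Cluster 7 was the highest non-distal cluster for Slc12a3 in 3 libraries, at 17.2, 23.4 and 11.5 in those labelled Klf4deltaEC, Nos3-/- and control. It stood at 8.40 in the one labelled Klf4deltaECNos3-/-. Genes of the proximal tubule and of the thick ascending limb were both high there, its median UMI totals of 4576 to 11916 were well above those of cluster 9 in each library, and it stayed unnamed. In the library labelled Klf4deltaECNos3-/- the highest was cluster 22, a cycling cell-like cluster of 14 nuclei, at 15.001, against 1.08 in the control. Wnk1 stood at 18.5 and Trpm6 at 2.03 in the same column, against 5.15 and 0.0691 in the control, the last below the level of 3 UMIs. Weighted by the number of nuclei, clusters 9, 11 and 7 and the rest held 68.3%, 21.3%, 4.57% and 5.76% of the Slc12a3 signal in the library labelled Klf4deltaECNos3-/-. In the library labelled Klf4deltaEC they held 67.9%, 17.6%, 7.11% and 7.41%. In that labelled Nos3-/- they held 54.3%, 21.6%, 5.85% and 18.3%, against 65.3%, 21.9%, 5.15% and 7.58% in the control.

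Trpm6 and Klhl3 were set against Slc12a3 in the same columns. In cluster 9 the Trpm6 level per Slc12a3 level was 0.110, 0.106, 0.132 and 0.205 in the libraries labelled Klf4deltaECNos3-/-, Klf4deltaEC, Nos3-/- and control. Pooled over clusters 0, 1, 3, 5 and 6, where proximal tubule markers were the highest list, it was 0.116, 0.139, 0.222 and 0.186. That list was also the highest in clusters 7 and 12, which were not pooled. In the library labelled Nos3-/- the pooled ratio rested on about 410 Trpm6 and 1849 Slc12a3 UMIs. The same ratio in cluster 11 was 0.119, 0.132, 0.124 and 0.234. Klhl3 per Slc12a3 was 1.39, 1.36, 0.420 and 1.41 pooled over the 5 clusters, 0.119, 0.119, 0.143 and 0.124 in cluster 9 and 0.213, 0.195, 0.209 and 0.226 in cluster 11. The pooled values hide a spread: over the 5 clusters the ratio ran from 0.243 to 0.635 in the library labelled Nos3-/- and from 0.230 to 3.30 in the control, so the lowest of them lay near the cluster 11 ratio. In cluster 7 Klhl3 per Slc12a3 was 0.223, 0.155, 0.193 and 0.230 in the 4 libraries. In cluster 12 Klhl3 was at 0.609, 1.22, 1.92 and 1.36, and Slc12a3 at 0.894, 5.04, 9.71 and 3.72. The part of free RNA or of mixed droplets in the Slc12a3 values outside clusters 9 and 11 was not tested.

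Other genes of the pathway were taken from 5 lists of 50 genes. Over all 50, 27 were measured above the filter in cluster 9 for Nos3-/- over control, and 0 passed the limit as higher and 2 as lower, near the 7.55% of all genes. Both are from the magnesium list. Egf, whose product stimulates Trpm6, was at 75.8, 51.6, 35.4 and 75.4 in cluster 9 of the libraries labelled Klf4deltaECNos3-/-, Klf4deltaEC, Nos3-/- and control, a log2 ratio of -1.09 (-1.16 to -1.03) for Nos3-/- over control. Umod, the thick ascending limb gene of uromodulin, was at 8.02, 5.06, 2.88 and 8.51, a log2 ratio of -1.53 (-1.79 to -1.35). Both are on the thick ascending limb marker list, and Egf made up most of its sum in cluster 9. That sum is therefore not a measure separate from these 2 genes. For Klf4deltaEC over control and Klf4deltaECNos3-/- over control, 0 of 27 and 0 of 29 passed in cluster 9. For Klf4deltaECNos3-/- over Nos3-/- 3 of 29 passed, against 9.03% of all genes, all higher, among them Egf at 1.10 (1.04 to 1.16) and Umod at 1.45 (1.26 to 1.70). Trpm7, the relative of Trpm6 that forms channels with it, was highest in cluster 9 of all clusters, at 31.2, 30.1, 21.3 and 33.7. None of the list genes passed in cluster 9 for Klf4deltaECNos3-/- over Klf4deltaEC.

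In cluster 11, 3 of 30 list genes passed for Nos3-/- over control, near the 8.87% of all genes. Tsc22d2, a member of the TSC22 family that works with NRBP1 and WNK kinases, was at 12.8, 8.98, 5.41 and 11.6 in the libraries labelled Klf4deltaECNos3-/-, Klf4deltaEC, Nos3-/- and control, a log2 ratio of -1.09 (-1.31 to -0.90). Hsd11b2, which protects the mineralocorticoid receptor from glucocorticoids, was at 0.621, 0.734, 0.0597 and 0.776, a log2 ratio of -2.46 (-6.02 to -2.08), and its lowest level is about that of 3 UMIs. Egfr, the receptor of Egf, was at 0.728, 0.944, 1.63 and 0.676, a log2 ratio of 1.16 (0.73 to 1.83). For Klf4deltaECNos3-/- over Nos3-/- these 3 passed in the other direction with Umod beside them, 4 of 29 against 9.79% of all genes, and for Klf4deltaEC over control and Klf4deltaECNos3-/- over control none of 28 did. For Klf4deltaECNos3-/- over Klf4deltaEC 2 of 27 passed, against 1.48% of all genes, the thick ascending limb genes Slc12a1 at 1.07 (0.77 to 1.47) and Umod at 1.11 (0.80 to 1.55).

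The genes most like each member were ranked by Pearson's r of log2(level + 0.1) over the 23 cluster means, among 7883 genes. The 23 points share libraries and depth, and r is given as a description. Trpm6 was the gene most like Slc12a3 (r = 0.95), ahead of the transcription factor gene Sall3 (0.93), Tsc22d1 (0.88), Tdrd3 (0.88) and Tsc22d2 (0.87). Tsc22d1 was highest in cluster 9 and Tsc22d2 in cluster 11, at means of 19.7 and 9.70. Wnk1 was most like Tmem52b (0.88), Cyb5rl (0.87) and Tdrd3 (0.87), Klhl3 like Sall3 (0.88), Tdrd3 (0.86) and Wnk1 (0.85), and Cnnm2 like Sall3 (0.92), Sgms2 (0.90) and Mapk10 (0.87). Trpm6 was most like Slc12a3 (0.95), Sall3 (0.93) and Tdrd3 (0.90). Wnk4 had another set, 5031425E22Rik (0.93), Sv2a (0.92) and Slc25a12 (0.92), and so had Stk39, with Ptpn18 (0.97), Ninl (0.96) and Hk1 (0.96). For Cul3, which varied little, r did not pass 0.65 (Rnf146), with Ddx24 and Acbd5 at 0.62.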

How the data were processed

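Nuclear RNA of kidney cortex was counted with UMIs on the 10X Chromium system, and Cell Ranger, Seurat and mm10 are named, without versions, in the submitters' processing notes. The authors' deposited values are a normalized signal of 21046 genes over 92 columns, 23 clusters in each of 4 libraries, each column summing to 10000. Levels were read as UMIs per 10000 UMIs averaged over nuclei, which the column sums allow but do not show alone. The sources used here do not give the treatment of introns, strand, free RNA or doublets. Barcodes shared between libraries could not be counted from cluster means.

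Nuclei numbers were inferred as the largest number dividing at least 85% of the reciprocals of the most often shared values (relative tolerance 1e-12). UMI totals were inferred from single-UMI values, and the method was tested on simulated data. Intervals are exact Poisson for levels and Clopper-Pearson for ratios, at 95%, and cover counting error only. Log2 ratios are of (level + 0.1), which understates changes of low genes, for genes whose higher library reached 0.5, with a limit of 1 in size. All genes were processed together. Gene models came from GENCODE vM21 on GRCm38 and promoter windows from RefSeq. Clusters were named from marker lists by a mean scaled level of at least 1 that led the next type by 0.5, with at most as many markers of another type among the 10 leading genes. Named genes were all members, list genes past the limit in cluster 9 or 11 (at most 4 a list), and the 5 genes most like Slc12a3 or 3 most like each other member; 1 list gene past the limit is not reported here. The members and lists were chosen with earlier results of these data known. Python 3.11.15, numpy 2.4.6, pandas 2.3.3, scipy 1.17.1 and matplotlib 3.10.9 were used.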

Additional observations from a re-analysis of the deposited data

Results flagged for a closer look

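Each result here is a gene whose log2 ratio for the Klf4 label had opposite signs on the 2 Nos3 backgrounds: Klf4deltaECNos3-/- over Nos3-/-, and Klf4deltaEC over control, with the counting intervals of both off 0. With 1 library a group the difference between the backgrounds was not tested, and 5 of the 7 are in cluster 9 and 2 in cluster 11. The share of all genes that meet this rule is not given here, so the 7 are not read as a trait of the set. Each difference includes the library labelled Nos3-/- once, so the level of that library alone moves it. Wnk1 in cluster 11 had 0.78 with Nos3 lost and -0.36 with Nos3 intact, a difference of 1.14. Wnk1 in cluster 9 had 0.88 and -0.09, a difference of 0.97. Cnnm2 in cluster 9 had 0.17 and -0.58, a difference of 0.76. Wnk4 in cluster 9 had 0.17 and -0.49, a difference of 0.66. Stk39 in cluster 9 had 0.39 and -0.14, a difference of 0.54. Klhl3 in cluster 9 had -0.15 and 0.11, a difference of -0.26. Slc12a3 in cluster 11 had -0.31 and 0.24, a difference of -0.55.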

How the results depend on the processing

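No paired analysis was possible because each genotype has 1 library. The counts of members past the limit were the same with a pseudocount of 0.5, with no filter on low values and with median-ratio rescaling. Subtracting each gene's median log2 ratio over the other clusters moved 4 counts, all in comparisons with the library labelled Nos3-/-. In cluster 9 the count became 3 for Nos3-/- over control (Slc12a3, Wnk1 and Trpm6, lower) and 3 for Klf4deltaECNos3-/- over Nos3-/- (the same genes, higher). In cluster 11 it became 3 for Nos3-/- over control (Slc12a3, Wnk1 and Trpm6, lower) and 2 for Klf4deltaECNos3-/- over Nos3-/- (Slc12a3 and Trpm6, higher). For Slc12a3 and Trpm6 this follows from the subtraction itself. The medians subtracted, over the other clusters of at least 30 nuclei, were 2.15 and 1.49 for Nos3-/- over control. They were -2.38 and -1.92 for Klf4deltaECNos3-/- over Nos3-/-. The median Slc12a3 level outside clusters 9 and 11 in the library labelled Klf4deltaECNos3-/-, 0.462, became 1.21 as a mean weighted by nuclei, and the other 3 libraries stayed within 1.5 times. Leaving out clusters of under 30 nuclei or unnamed clusters moved none of the 4 medians by as much. Among 80 member log2 ratios, 12 moved beyond their counting interval under rescaling, 25 with clusters 9 and 11 joined and 0 with a pseudocount of 0.5, and none past the limit changed sign. Rescaling shifted the median of all genes by up to 0.12 (cluster 9, Klf4deltaECNos3-/- over Klf4deltaEC). The genes most like a member changed with a Spearman correlation for 7 of 8 members and without clusters of under 30 nuclei for 4 of 8. Depth was lowest in the library labelled Nos3-/-, and levels near a count of 3 UMIs are not resolved.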
